A study of Homo sapiens with 3 samples.

Results

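The genes of glycolysis, gluconeogenesis and glycogen metabolism were followed as 36 genes, named by 37 symbols because PKM and PKM2 are one gene, out of 16149 genes listed in at least 1 of 3 mRNA libraries. The members were taken by symbol from a list of pathway genes, and the rule that defines them uses no measured value, although the list was drawn up with earlier results of these data known. Of the 36 genes, 34 had a row in at least 1 library and 30 averaged 1 RPKM or more across the libraries. RPKM is the reads of a gene divided by transcript length and sequencing depth. The other 4 listed genes were SLC2A3, HK2, FBP1 and GYS2, and G6PC and PCK1 had no row in any library.

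The libraries came from HCCLM3, a human hepatocellular carcinoma (HCC) cell line with metastatic potential, and from 2 of its subclones, each with 1 library of cells cultured in DMEM medium. The parent was labelled as having a low ability to metastasise, subclone 1 as more metastatic and specific to the lung, and subclone 2 as reaching both the lung and the celiac lymph node. The study describes its parental line instead as highly metastatic and as carrying red fluorescent protein. Its subclones were grown from single cells of metastases taken from mouse xenografts, and which of the named clones were sequenced is not given in the sources used here. No treatment, medium or oxygen condition separated the groups in the labels. Each subclone is 1 clone, so that a difference from the parent may belong to that clone alone. With 1 library per line no difference between lines could be tested, and the 95% intervals below cover counting error only. In bulk libraries, fewer cells expressing a gene and less mRNA per cell cannot be told apart.

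Glycolysis splits glucose into pyruvate, and many tumour cells reduce much of that pyruvate to lactate and export it. Hepatocytes also run the route in reverse (gluconeogenesis) and store glucose as glycogen, with liver isoenzymes that differ from those of most other tissues. Most steps are catalysed by families of isoenzymes, so the isoenzyme that a cell expresses is as informative as the total of the step.

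Totals recovered from the RPKM values were 4488825 reads (parent), 4609696 (subclone 1) and 4725150 (subclone 2), and 14703, 14900 and 14931 genes were listed. Epithelial keratins of hepatocyte-derived cells were abundant, with KRT8 at 1614, 1641 and 1742 RPKM in the parent, subclone 1 and subclone 2. ALB, the plasma protein albumin, had 25, 517 and 736 reads in the same order, while TTR, APOA1 and SERPINA1, also secreted by hepatocytes, had 4 reads or fewer in every library. Other secreted hepatocyte proteins differed between the lines, with TF (transferrin) at 5.71, 30.3 and 5.88 RPKM, FGB (fibrinogen beta) at 1.66, 14.5 and 5.6 RPKM, and APOB (apolipoprotein B) at 19, 80 and 278 reads. The 11 hepatocyte markers summed to 2591, 2828 and 2896 RPKM, mostly from KRT8 and KRT18, and 8 of them passed the filter of mean RPKM. Markers of fibroblasts summed to 4.8, 2.66 and 0.498 RPKM, mostly from COL3A1 at 109, 56 and 12 reads, with COL1A2 at 1, 1 and 0 reads, and those of endothelium to 4.74, 11.8 and 7.56 RPKM, mostly from PECAM1 at 34, 103 and 48 reads and KDR at 37, 54 and 88 reads, with CDH5 at 0, 1 and 0 reads. Whether these marker differences have a part in the values below was not tested. The leukocyte markers summed to 76.4, 113 and 101 RPKM, nearly all from the lysosomal protein gene CD68, with the defining leukocyte gene PTPRC at 1 read in the parent and at 0 in both subclones.

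The genes of the pathway together held a similar share of the reads in the 3 lines, and 6 of them differed by more than 1.5-fold between lines. The 34 listed genes held 2.08% of all reads in the parent (95% exact binomial interval 2.07% to 2.09%), 2.17% in subclone 1 (2.16% to 2.18%) and 2.01% in subclone 2 (2.0% to 2.02%). GAPDH alone made up 28.7%, 28.5% and 28.4% of these reads. In 24 of the 30 genes past the filter, all 3 libraries lay within 1.5-fold of each other, as they did in 70.6% of the 11370 genes that averaged 1 RPKM or more. The 6 genes outside that band were TXNIP, SLC16A3, SLC16A1, ALDOC, ENO2 and PCK2. None of these is a sole enzyme of a glycolytic step.

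In subclone 1 over the parent, 3 members exceeded a 2-fold higher value of RPKM + 0.1 and 0 were lower by as much, against 4.90% and 1.82% of all genes. The 3 genes were TXNIP, ALDOC and SLC16A3, of which SLC16A3 lay just under 2-fold (log2 ratio 0.98) on division by ACTB. At 1.5-fold the counts were still 3 and 0, against 11.6% and 7.46% of all genes. In subclone 2 over the parent, 1 gene (TXNIP) was at least 2-fold higher and 0 were lower, against 5.33% and 2.16%. At 1.5-fold 4 genes were higher (TXNIP, SLC16A3, ALDOC and PCK2) and 1 was lower (SLC16A1), against 12.7% and 7.30%. Between the subclones, 0 genes differed by 2-fold in either direction, where 1.42% of all genes were higher and 1.39% lower in subclone 2. At 1.5-fold, 1 gene was higher (TXNIP) and 1 lower (ENO2) in subclone 2, against 4.75% and 4.11%. None of these counts was more than 3 genes away from the background share of 30 genes. The median log2 ratio of the 30 genes was 0.14 when subclone 1 was set against the parent, 0.0049 when subclone 2 was, and -0.11 between subclone 2 and subclone 1. Over all genes the medians were 0.0043, 0.037 and 0.034. The member medians involving subclone 2 changed sign under other scalings of the libraries. Both comparisons with the parent share its single library, so a shared direction in them is no independent repeat.

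**Figure D1:**
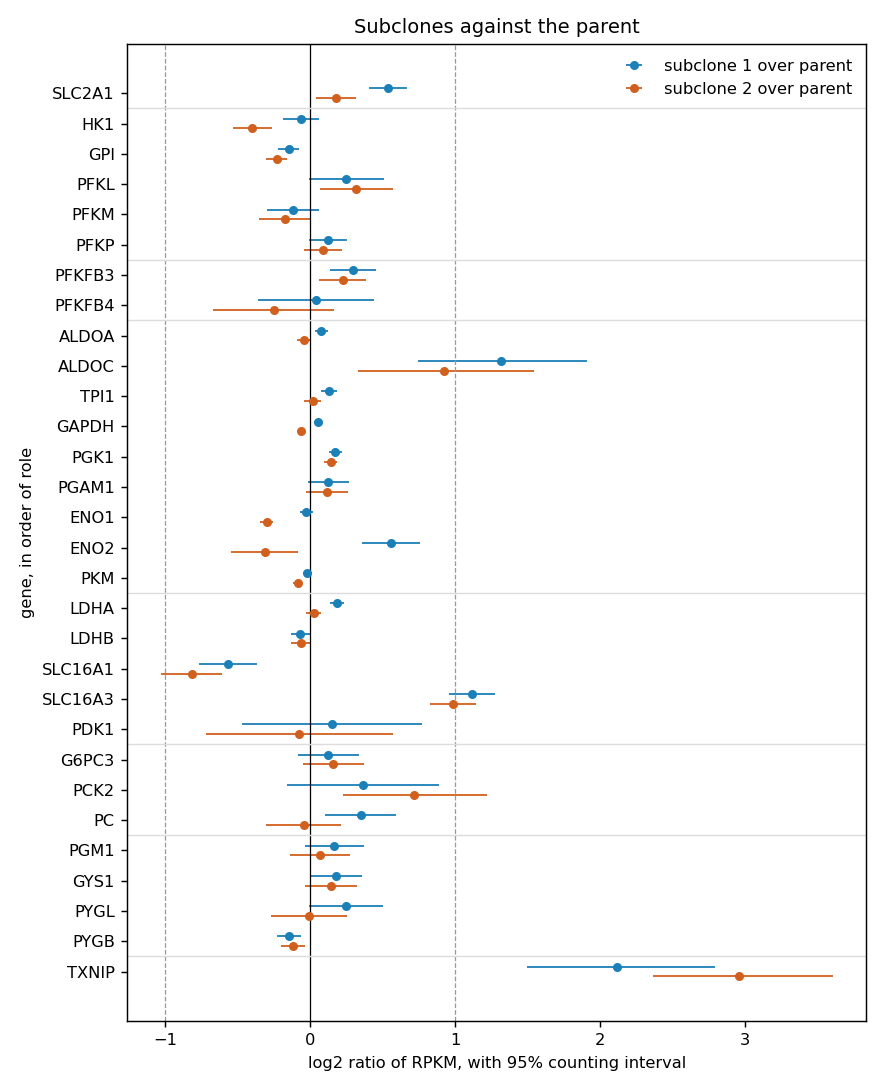
Log2 ratio of RPKM of each subclone over the parent (horizontal axis) for the 30 members past the filter, in order of role (vertical axis), with blue points for subclone 1, orange points for subclone 2, bars for 95% counting intervals, dashed lines at 2-fold and grey rules between roles. Most points lie close to 0, and TXNIP, ALDOC and SLC16A3 lie to the right and SLC16A1 to the left for both subclones.

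TXNIP, an arrestin-like protein that lowers glucose uptake and is itself induced by glucose, showed the widest difference of the 30 genes. It had 26 reads in the parent (1.96 RPKM, 95% Poisson interval 1.28 to 2.87), 116 in subclone 1 (8.52 RPKM, 7.04 to 10.2) and 213 in subclone 2 (15.3 RPKM, 13.3 to 17.5). The 3 intervals did not overlap. The ratio to the parent was 4.34 in subclone 1 (95% counting interval 2.82 to 6.93) and 7.78 in subclone 2 (5.17 to 12.2), and subclone 2 stood 1.79-fold above subclone 1 (1.42 to 2.27). Of the 16149 genes listed in at least 1 library, 37.0% were at or below its level in the parent. In subclone 1 the share was 59.5% and in subclone 2 71.2%, with genes missing from a library counted as 0. ARRDC4, the closest relative of TXNIP and another gene induced by glucose, was named after its values were seen. It stood at 1.53, 1.86 and 1.56 RPKM, with ratios to the parent of 1.22 (0.719 to 2.08) and 1.02 (0.588 to 1.77).

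Glucose induces TXNIP through a pair of E-boxes in its promoter, bound by the sugar-responsive factors MondoA (MLXIP) or ChREBP (MLXIPL) together with MLX. The promoter is printed because TXNIP was the member that differed most and this pair can be read in it. The sequence is the RefSeq window of GRCh38.p14 at chr1:145996530-145996829 on the minus strand, from 250 bases before the transcript start to 50 after, and capitals mark 2 copies of CACGNG with the 5 bases between them, at positions -88 to -72 from the start.
TXNIP: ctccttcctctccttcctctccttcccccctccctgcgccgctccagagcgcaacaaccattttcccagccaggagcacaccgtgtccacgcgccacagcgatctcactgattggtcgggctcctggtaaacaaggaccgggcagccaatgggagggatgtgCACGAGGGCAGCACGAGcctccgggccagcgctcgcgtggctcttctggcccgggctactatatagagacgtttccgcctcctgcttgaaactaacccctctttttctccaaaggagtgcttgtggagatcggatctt
The pair was sought as 2 copies of CACGNG in either orientation 5 bases apart. It occurred in 27 of 35116 promoter windows (0.0769%), and among the members only in this one of the 2 windows of TXNIP. Of the 36 members, 32 had at least 1 window, and those without one were GYS2, SLC2A3, SLC16A1 and PCK1. A match describes the letters in the window and no binding was measured here.

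The transporters that carry lactate and pyruvate across the plasma membrane differed in opposite directions. SLC16A3 (MCT4), the lactate exporter typical of glycolytic cells, stood at 49.7 RPKM in the parent (45.3 to 54.4), 108 in subclone 1 (101 to 114) and 98.5 in subclone 2 (92.4 to 105). SLC16A1 (MCT1), which carries lactate in either direction, stood at 25.0 RPKM (22.9 to 27.3), 16.9 (15.2 to 18.8) and 14.2 (12.6 to 15.9). For both genes the parent lay apart from both subclones, whose own intervals overlapped. SLC16A3 was 2.17-fold higher than in the parent in subclone 1 (1.94 to 2.42) and 1.98-fold in subclone 2 (1.77 to 2.22). For SLC16A1 the ratios were 0.676 (0.587 to 0.777) and 0.568 (0.490 to 0.658). Between subclone 2 and subclone 1 the ratios were closer to 1, at 0.915 for SLC16A3 (0.837 to 0.999) and 0.841 for SLC16A1 (0.718 to 0.986). SLC16A3 therefore made up 66.4% of the RPKM of the 3 transporters SLC16A1, SLC16A3 and SLC16A7 in the parent (61.9% to 70.4%), 86.4% in subclone 1 (84.2% to 88.3%) and 87.4% in subclone 2 (85.1% to 89.2%).

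ACGTG, the core that hypoxia-inducible factors bind, and CACGTG, an E-box that contains it, were searched in the same promoter windows on both strands. ACGTG was found in 38.5% of the 65 member windows and in 21.4% of all windows. CACGTG was found in 13.8% and 7.26%. Several members have more than 1 window and windows of a gene can overlap, as those of G6PC3 with CACGTG did. The same site can therefore be counted more than once, and no share of genes with a match was computed. The promoters of ALDOC and SLC16A3 are printed because these genes and TXNIP were the 3 past 2-fold in subclone 1. Capitals mark ACGTG on either strand. ALDOC lies on the minus strand at chr17:28576846-28577145 and SLC16A3 on the plus strand at chr17:82228792-82229091, the only one of its 5 windows with the motif, both in GRCh38.p14.
ALDOC: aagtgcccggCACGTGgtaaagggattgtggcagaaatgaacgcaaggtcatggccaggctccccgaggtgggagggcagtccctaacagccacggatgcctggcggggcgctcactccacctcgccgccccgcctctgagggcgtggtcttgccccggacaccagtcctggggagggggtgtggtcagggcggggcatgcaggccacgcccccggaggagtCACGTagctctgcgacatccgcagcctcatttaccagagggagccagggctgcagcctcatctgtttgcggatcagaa
SLC16A3: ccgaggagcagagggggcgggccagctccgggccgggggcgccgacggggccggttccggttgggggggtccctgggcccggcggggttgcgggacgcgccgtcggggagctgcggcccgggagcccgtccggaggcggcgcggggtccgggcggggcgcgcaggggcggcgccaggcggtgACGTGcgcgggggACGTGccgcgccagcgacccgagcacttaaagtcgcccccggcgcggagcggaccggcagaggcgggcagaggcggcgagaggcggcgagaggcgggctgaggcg
ALDOC carried CACGTG at -240 to -235 and a further match at -28 to -24, and SLC16A3 carried matches at -68 to -64 and -55 to -51.

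**Figure D2:**
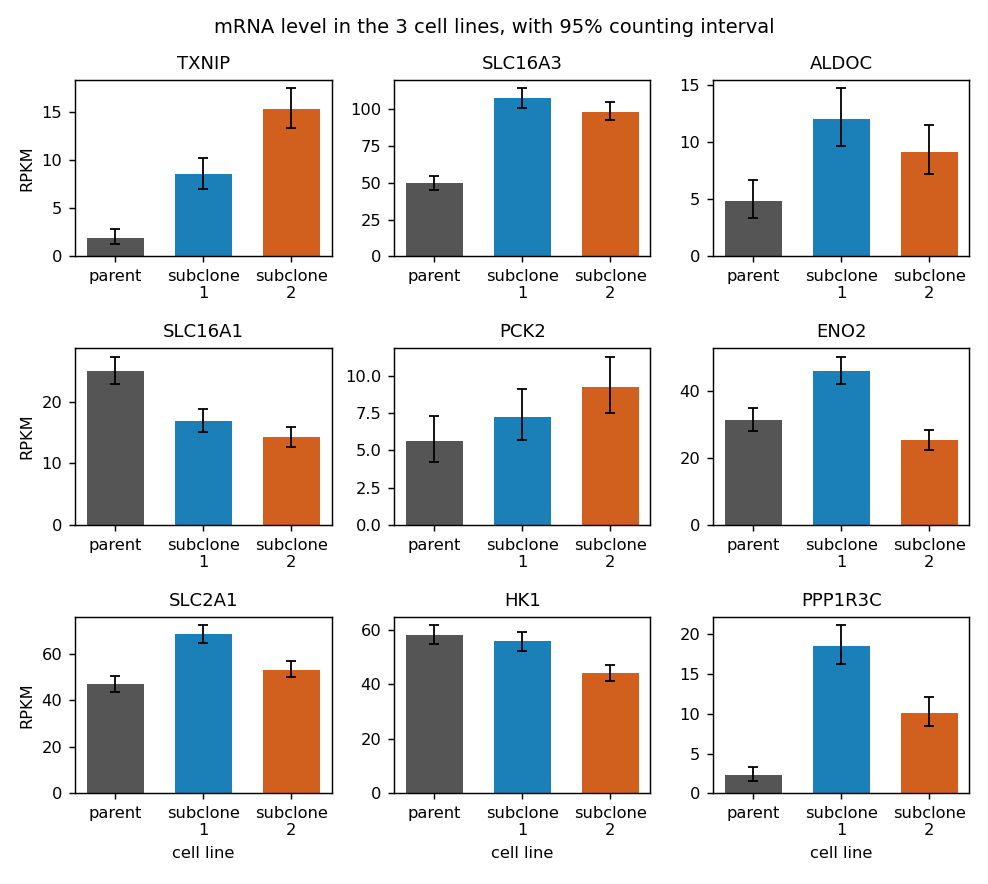
RPKM (vertical axes, each from 0) of 9 genes in the parent (grey), subclone 1 (blue) and subclone 2 (orange), 1 library per line, with bars for 95% counting intervals. TXNIP is at 1.96 RPKM in the parent and 15.3 in subclone 2, SLC16A3 and ALDOC are low and SLC16A1 is high in the parent, and ENO2 and PPP1R3C are highest in subclone 1.

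The lower stretch of glycolysis, from aldolase to pyruvate kinase, held the most abundant members and varied little. GAPDH, which oxidises glyceraldehyde 3-phosphate, stood at 4554, 4729 and 4359 RPKM in the parent, subclone 1 and subclone 2. PKM, the pyruvate kinase of most proliferating cells, stood at 1259, 1242 and 1187 RPKM. The other steps of this stretch were ALDOA (aldolase, 667, 704 and 647 RPKM), TPI1 (triose phosphate isomerase, 625, 684 and 633), PGK1 (phosphoglycerate kinase, 642, 725 and 709), PGAM1 (phosphoglycerate mutase, 95, 104 and 103) and ENO1 (enolase, 718, 706 and 584). ENO1 was the only one of these 7 abundant genes more than 1.2-fold apart in any comparison, with ratios of 0.813 for subclone 2 over the parent (0.787 to 0.839) and 0.828 over subclone 1 (0.802 to 0.854). All 9 members of the stretch had a lower RPKM in subclone 2 than in subclone 1, with a median log2 ratio of -0.12, but 6 of the 9 changed sign on division by ACTB, and ALDOC, ENO1 and ENO2 did not.

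Among the members of this stretch, the minor isoenzymes ALDOC and ENO2 differed most. ALDOC, the brain-type aldolase, had 36 reads in the parent (4.82 RPKM, 3.37 to 6.67), 92 in subclone 1 (12 RPKM, 9.66 to 14.7) and 72 in subclone 2 (9.15 RPKM, 7.16 to 11.5). Both subclones lay above the parent, by 2.49-fold (1.68 to 3.77) and 1.90-fold (1.26 to 2.92), and their own intervals overlapped. Its share of aldolase RPKM stayed small, at 0.717%, 1.67% and 1.40%, since ALDOA made up 99.3%, 98.3% and 98.6%. ENO2, the neuron-type enolase, stood at 31.3 RPKM in the parent (28.0 to 34.8), 46.0 in subclone 1 (42.1 to 50.2) and 25.2 in subclone 2 (22.3 to 28.2). It was high in subclone 1 alone, at 1.47-fold the parent (1.28 to 1.69), while subclone 2 had 0.805 of the parent (0.685 to 0.944) and 0.547 of subclone 1 (0.472 to 0.633). ENO2 made up 4.17%, 6.12% and 4.13% of enolase RPKM.

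Near-identical gene copies can take up or lend reads to several of these enzymes, and how the authors treated shared reads is not given in the sources used here. Among the listed copies, GAPDHS, LDHAL6A, PGAM4 and TPI1P2 were each under 1 RPKM in every library, and PGK2 and LDHAL6B had no row. The levels of GAPDH, PGK1, PGAM1, ENO1, TPI1, LDHA, LDHB, PKM and ALDOA are uncertain to that extent.

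**Figure D3:**
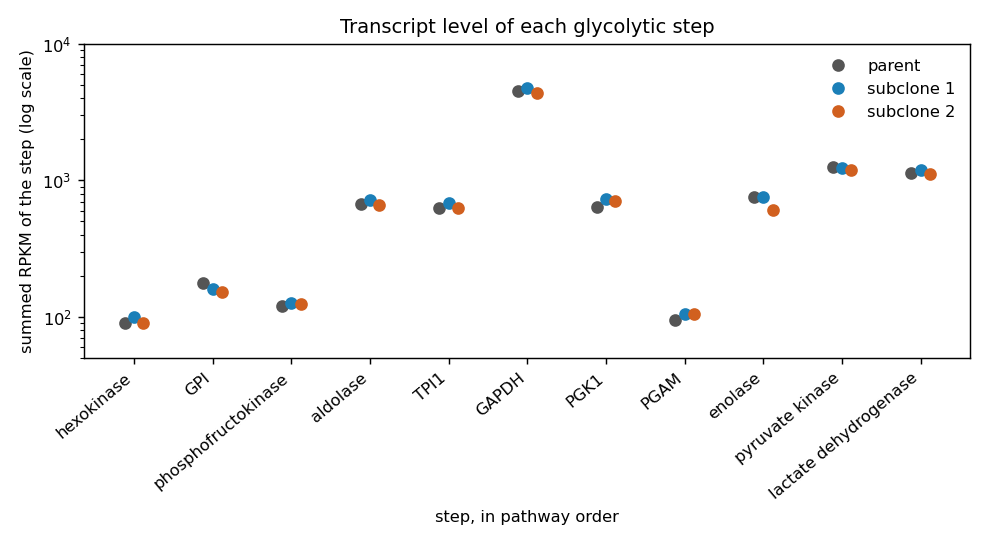
Summed RPKM of the isoenzymes of each glycolytic step (vertical axis, log scale) in pathway order (horizontal axis), with 1 point per library for the parent (grey), subclone 1 (blue) and subclone 2 (orange). The GAPDH step is the highest at 4359 to 4729 RPKM and the hexokinase and PGAM steps are among the lowest at 89.4 to 105 RPKM. The points of the 3 lines lie close together. The widest gap is at enolase, where subclone 2 stands at 609 RPKM against 750 in the parent, followed by GPI, at 151 against 178.

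Entry of glucose and the upper, regulated steps showed modest differences. SLC2A1 (GLUT1), the basal glucose transporter, stood at 47.1 RPKM in the parent (43.8 to 50.5), 68.4 in subclone 1 (64.6 to 72.5) and 53.3 in subclone 2 (49.9 to 56.8). Subclone 1 was the highest, at 1.45-fold the parent (1.33 to 1.59), and subclone 2 was 1.13-fold above the parent (1.03 to 1.25). SLC2A3 (GLUT3), a high-affinity transporter, had only 11, 14 and 1 reads, and the liver transporter SLC2A2 had no row. SLC2A1 made up 98.4%, 98.5% and 99.4% of the summed RPKM of SLC2A1, SLC2A2, SLC2A3 and SLC2A4, the muscle and fat transporter.

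Hexokinase, which traps glucose as glucose 6-phosphate, came from HK1 and HKDC1. HK1 stood at 58.2 RPKM (54.7 to 61.8), 55.8 (52.4 to 59.3) and 44.1 (41.2 to 47.3) in the parent, subclone 1 and subclone 2. HKDC1, a further hexokinase, stood at 31.6, 44.5 and 45.2 RPKM, with ratios to the parent of 1.41 (1.26 to 1.58) and 1.43 (1.28 to 1.6). HK1 was low in subclone 2, at 0.759 of the parent (0.692 to 0.832), and HKDC1 was low in the parent. The share of HK1 in hexokinase RPKM was 64.8% in the parent (61.2% to 68.1%), 55.6% in subclone 1 (52.1% to 58.9%) and 49.4% in subclone 2 (45.8% to 52.9%), while the summed level of the step was 89.8, 100.4 and 89.4 RPKM. HK2, the hexokinase most often linked to tumour glycolysis, had 1, 4 and 1 reads.

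The next steps differed modestly. GPI, which converts glucose 6-phosphate to fructose 6-phosphate, stood at 178, 160 and 151 RPKM. Its ratios to the parent were 0.902 (0.859 to 0.947) in subclone 1 and 0.852 (0.811 to 0.895) in subclone 2. Phosphofructokinase, the main control point of glycolysis, summed to 119.9, 126 and 125 RPKM, of which the platelet form PFKP made up 60.1%, 61.9% and 61.5%, the muscle form PFKM 27.4%, 23.9% and 23.4%, and the liver form PFKL 12.6%, 14.2% and 15.1%. The ratio of PFKL in subclone 2 over the parent was 1.25 (1.05 to 1.49). PFKFB3 and PFKFB4, which set the level of fructose 2,6-bisphosphate and so the activity of phosphofructokinase, stood at 28.0, 34.4 and 32.8 RPKM and at 6.61, 6.81 and 5.56 RPKM. PFKFB3 was 1.23-fold (1.10 to 1.37) and 1.17-fold (1.05 to 1.31) higher in the subclones, and both intervals of PFKFB4 included 1.

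At the end of the pathway, LDHA, the lactate dehydrogenase subunit typical of lactate production, stood at 581, 661 and 591 RPKM and LDHB, the subunit typical of oxidative tissue, at 553, 528 and 529 RPKM. LDHA made up 51.3% of the family in the parent (49.8% to 52.7%), 55.6% in subclone 1 (54.2% to 57.0%) and 52.8% in subclone 2 (51.3% to 54.2%). PDK1, a kinase that shuts off pyruvate dehydrogenase, had 43, 49 and 43 reads (8.37, 9.29 and 7.95 RPKM). Its relatives PDK2 and PDK4 were higher in both subclones. PDK2 stood at 2.88, 5.20 and 4.99 RPKM, with ratios of 1.81 (1.18 to 2.81) and 1.74 (1.13 to 2.70). PDK4, a kinase of the fasting state, had 7, 35 and 39 reads (0.420, 2.05 and 2.22 RPKM), with ratios of 4.87 (2.13 to 13.0) and 5.29 (2.34 to 14.0). The share of PDK1 in the family was 65.0%, 51.5% and 48.2%, and that of PDK4 3.26%, 11.3% and 13.5%.

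**Figure D4:**
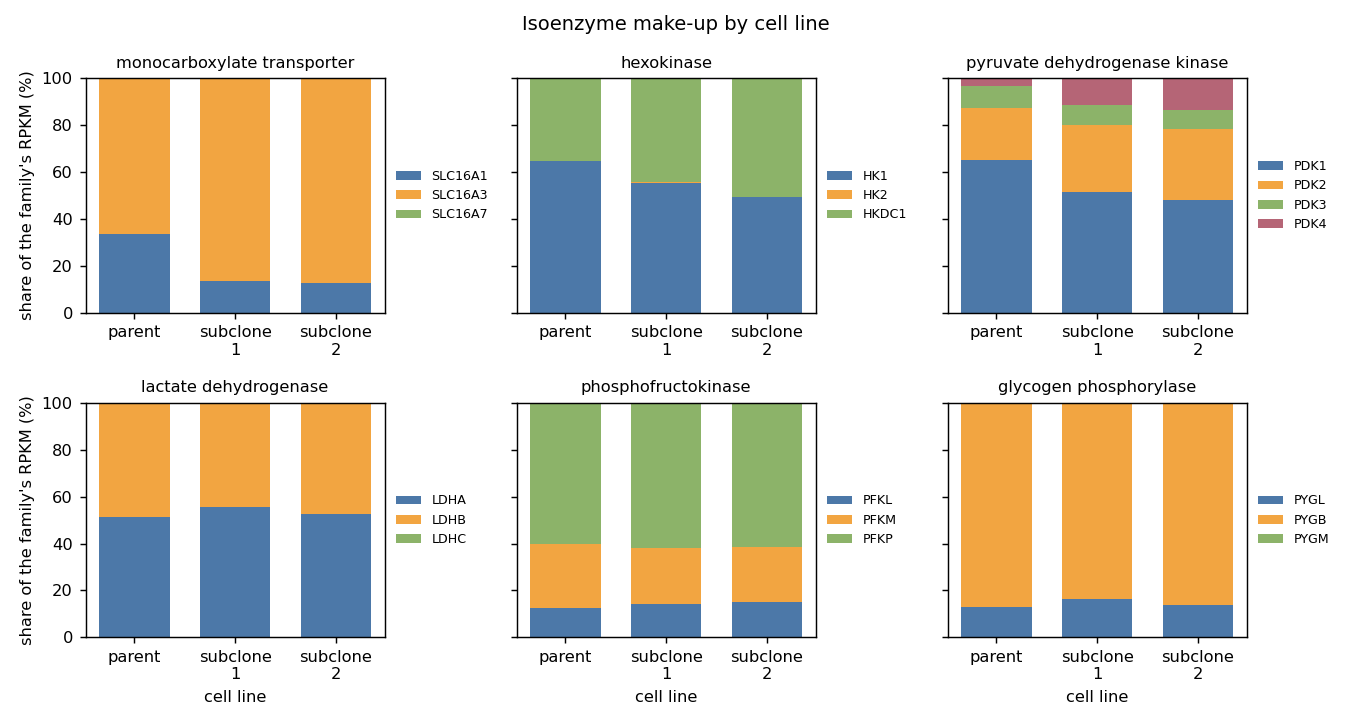
Share of each isoenzyme in the summed RPKM of its family (vertical axes, percent) in each cell line, 1 library per line, with 1 panel per family and colours for the isoenzymes. The share of SLC16A3 stands at 66.4% in the parent against 86.4% and 87.4% in the subclones, and that of HK1 at 64.8% against 55.6% and 49.4%, while the phosphofructokinase and glycogen phosphorylase panels look alike in the 3 lines.

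The gluconeogenic enzymes that mark hepatocytes were missing or nearly so. G6PC, the liver glucose 6-phosphatase, and PCK1, the cytosolic phosphoenolpyruvate carboxykinase, had no row in any library. FBP1, the liver fructose 1,6-bisphosphatase, had 0 reads in the parent and in subclone 1, which allows up to 0.406 and 0.395 RPKM (3 reads), and 4 reads in subclone 2 (0.514 RPKM). The widely expressed forms were present. G6PC3 stood at 42.8, 46.7 and 47.9 RPKM. PC (pyruvate carboxylase, which makes oxaloacetate) stood at 12.9, 16.5 and 12.5 RPKM and was 1.27-fold above the parent in subclone 1 (1.07 to 1.51). PCK2, the mitochondrial carboxykinase, had 56 reads in the parent (5.62 RPKM, 4.24 to 7.29), 74 in subclone 1 (7.23 RPKM, 5.68 to 9.07) and 97 in subclone 2 (9.24 RPKM, 7.50 to 11.3). Subclone 2 lay above the parent by 1.65-fold (1.17 to 2.33), and subclone 1 overlapped both.

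Glycogen synthase and phosphorylase differed little between the lines. GYS1, the synthase of most tissues, stood at 29.3, 33.1 and 32.3 RPKM, and the liver synthase GYS2 had 0, 1 and 0 reads. PYGB, the brain-type phosphorylase that releases glucose 1-phosphate from glycogen, stood at 124, 112 and 114 RPKM. It made up 87.0%, 83.7% and 86.1% of its family, ahead of the liver form PYGL at 18.5, 21.9 and 18.4 RPKM. PGM1, which links glucose 1-phosphate to glucose 6-phosphate, stood at 31.5, 35.4 and 33.1 RPKM. All ratios of GYS1, PYGL, PYGB and PGM1 to the parent lay between 0.905 and 1.19.

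The proteins that target and remove glycogen differed more than these enzymes. Of 17 further genes of glycogen handling, 15 passed the filter, of which 3 were at least 1.5-fold higher and 0 lower in subclone 1 over the parent (11.6% and 7.46% of all genes), and 3 and 0 in subclone 2 (12.7% and 7.30%). The median log2 ratios were 0.38 and 0.39. PPP1R3C, a subunit that brings protein phosphatase 1 to glycogen and favours its synthesis, had 27 reads in the parent (2.27 RPKM), 227 in subclone 1 (18.6 RPKM) and 127 in subclone 2 (10.2 RPKM). It was 8.19-fold (5.48 to 12.7) and 4.47-fold (2.93 to 7.04) higher in the subclones, and subclone 2 had 0.546 of subclone 1 (0.436 to 0.681). STBD1, which tethers glycogen to membranes, was 1.78-fold (1.40 to 2.27) and 1.91-fold (1.51 to 2.43) higher in the subclones. PPP1R3B, the liver form of the targeting subunit, was 1.56-fold higher in subclone 1 (1.18 to 2.09), and PPP1R3D, another such subunit, 1.65-fold in subclone 2 (1.01 to 2.76).

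Neighbouring routes were counted in the same way, against the shares of all genes past 1.5-fold given above (11.6% higher and 7.46% lower in subclone 1, 12.7% and 7.30% in subclone 2). Of 8 genes of the pentose phosphate pathway, which draws glucose 6-phosphate away for NADPH and ribose, all passed the filter and the median log2 ratio was -0.27 in subclone 1 and -0.29 in subclone 2 over the parent. TKT (transketolase) stood at 366, 231 and 263 RPKM, with ratios of 0.630 (0.602 to 0.659) and 0.719 (0.688 to 0.75). RPIA and RPE, which interconvert the pentose phosphates, had ratios in subclone 2 of 0.562 (0.399 to 0.786) and 0.642 (0.525 to 0.785). H6PD, the glucose 6-phosphate dehydrogenase of the endoplasmic reticulum, was 1.77-fold (1.5 to 2.11) and 1.41-fold (1.18 to 1.68) higher in the subclones. At 1.5-fold the list counted 1 higher and 1 lower gene in subclone 1 and 0 higher and 2 lower in subclone 2.

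Of 9 genes of pyruvate entry to mitochondria, 0 were past 1.5-fold in subclone 1 and 1 was higher in subclone 2, namely PDP1, a phosphatase that reactivates pyruvate dehydrogenase, at 1.65-fold (1.39 to 1.95). Of 7 genes past the filter for the entry of fructose, mannose and galactose, only MPI (mannose phosphate isomerase) passed 1.5-fold, at 1.68-fold (1.22 to 2.34) and 1.64-fold (1.19 to 2.28). Of 22 further isoenzymes of the members, 16 were listed and 8 passed the filter. Of all genes, 11.6% were at least 1.5-fold higher and 7.46% lower in subclone 1, and 12.7% and 7.30% in subclone 2. Of the 8 isoenzymes, 4 were as much higher and 0 lower in each subclone. Besides PDK2 and PDK4 these were BPGM, a bisphosphoglycerate mutase, with ratios of 2.23 (1.58 to 3.18) and 1.84 (1.29 to 2.66), and the muscle mutase PGAM2, with 1, 7 and 9 reads. The intervals of PGAM2 were 0.876 to 307 in subclone 1, which includes 1, and 1.18 to 375 in subclone 2. PDK4 (0.420 RPKM in the parent) and PGAM2 (0.251) passed the filter only through the subclones. The filter thus favours higher genes here, and the count is no fair comparison with all genes.

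**Figure D5:**
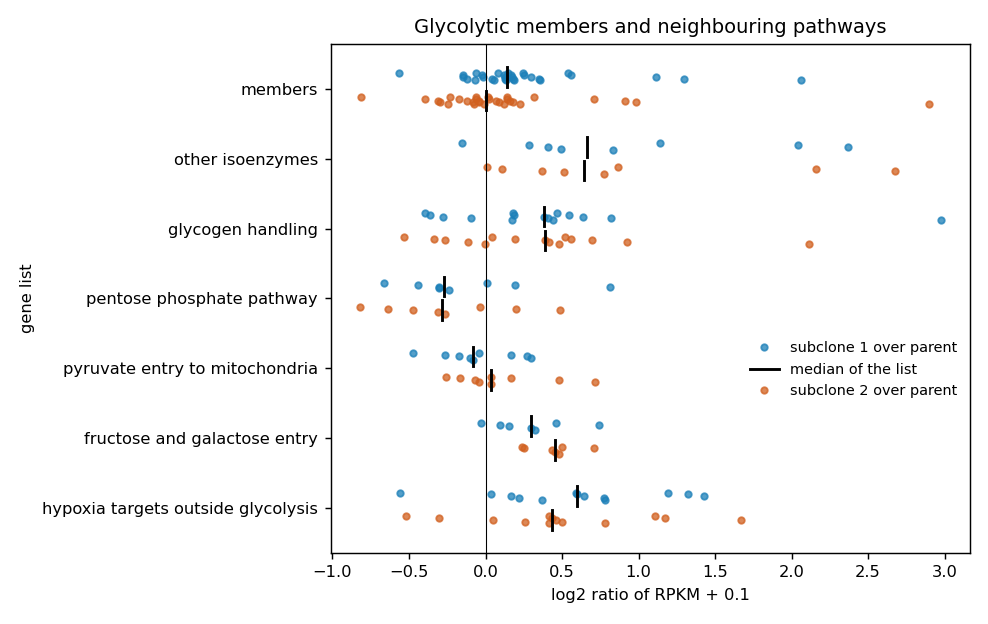
Log2 ratio of RPKM + 0.1 (horizontal axis) of each gene past the filter in the member list and 6 neighbouring lists (vertical axis), with blue points for subclone 1 over the parent, orange points for subclone 2 over the parent and black ticks for the median of each list. The members' medians stand at 0.14 and 0.0049, glycogen handling stands at 0.38 and 0.39, and the pentose phosphate pathway lies to the left at -0.27 and -0.29.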

How the data were processed

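RNA from 3 cultured HCC lines was isolated with Trizol, and 1 library per line was prepared (Illumina TruSeq). The authors deposited RPKM values per gene on the hg19 build, according to the submitters' processing notes. The aligner, the counter, the gene models and how strand or shared reads were treated are not given in the sources used here. Genes missing from a library were set to 0. Whole reads and library totals were recovered from the RPKM, and 98.6% of the 11370 genes that averaged 1 RPKM or more were resolved. Where the reads of a gene have a common divisor they may be too low, and the intervals then too wide. PCR copies of one molecule were not told apart. RPKM were given exact Poisson intervals and ratios exact (Clopper-Pearson) intervals at 95%. Bounds of family shares set the Poisson bound of one gene against the opposite bounds of the others, and are not exact 95% intervals. The script was tested on simulated data.

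Ratios are of RPKM, and counts and log2 ratios of RPKM + 0.1. Genes were called at 2-fold, and at 1.5-fold, without any test. The members and lists were chosen with earlier results of these data known. All members could be named. From other lists, genes that averaged 1 RPKM or more could be named when at least 1.5-fold apart in 1 comparison. The interval of that ratio had to exclude no difference. Failing that, the 2 most abundant could be named, and isoenzymes were named for family shares. Some results on genes of these lists are not reported here. Alternatives were a pseudocount of 0.01 or 1, an equal RPKM sum in each library, centring of ratios on their median, division by ACTB, GAPDH or the upper quartile, a minimum average of 5 RPKM or none, members without near-identical copies, and 1.5-fold. Promoters came from RefSeq (GRCh38.p14), and no coordinates of the files were used. Python 3.11.15, numpy 2.4.6, pandas 2.3.3, scipy 1.17.1 and matplotlib 3.10.9 were used.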

Additional observations from a re-analysis of the deposited data

Results flagged for a closer look

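ENO2 and GAPDH lay on opposite sides of the parent in the 2 subclones. The log2 ratio of ENO2 was 0.56 in subclone 1 and -0.31 in subclone 2 over the parent, and both signs were kept under every scaling run. The log2 ratio of GAPDH was 0.054 in subclone 1 and -0.063 in subclone 2, and its sign in subclone 1 changed on division by ACTB. Each side rests on 1 library, both share the parental library, and the difference between the subclones was not tested.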

How the results depend on the processing

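No paired analysis was possible because 1 library stands for each line, and no replicate could be left out. Of 96 alternative values of the member counts and medians, 9 counts moved by more than 1.5 times. The median log2 ratio of the members ranged from 0.0080 (ACTB) to 0.18 for subclone 1 over the parent, from -0.032 to 0.069 for subclone 2 over the parent, and from -0.16 to 0.020 (ACTB) between the subclones, so the last 2 medians changed sign. For subclone 1 over the parent, the count of higher members was 2 on division by ACTB, where SLC16A3 was the gene lost. For subclone 2 over the parent, the count of higher members was 2 on division by GAPDH, 2 without the filter and 4 at 1.5-fold, and the count of lower members was 1 without the filter and 1 at 1.5-fold. For subclone 2 over subclone 1, both the higher and the lower count were 1 without the filter and 1 at 1.5-fold. Of 630 alternative ratios of single members, 59 moved beyond their counting interval, 24 of them on division by ACTB and 23 by GAPDH. The sign was kept under every setting in 23 of 30 members for subclone 1 over the parent, 24 for subclone 2 over the parent and 15 between the subclones. Division by ACTB moved the median log2 ratio of all genes to -0.13 for subclone 1 over the parent and to 0.16 between the subclones, and division by GAPDH moved the latter to 0.15. The higher genes among those past 2-fold went from 72.9% to 57.8% with ACTB for subclone 1 over the parent, and from 50.5% to 63.8% with ACTB and 62.6% with GAPDH between the subclones. At this depth members under 1 RPKM held 14 reads or fewer in any library, so their ratios were not interpreted. This includes SLC2A3 in subclone 2, whose counting intervals excluded 1. Its ratios were 0.0864 to the parent (0.00201 to 0.594) and 0.0697 to subclone 1 (0.00165 to 0.458).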

Other observations

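Of 14 genes known to be induced by hypoxia but outside glycolysis, 13 passed the filter, and 8 were at least 1.5-fold higher and 0 lower in subclone 1 over the parent, with a median log2 ratio of 0.60, where 11.6% of all genes were as much higher. In subclone 2 the counts were 4 and 0 and the median was 0.43, against 12.7% of all genes. ANKRD37, named after its values were seen, is in both higher counts with 3, 9 and 11 reads. At 0.716 RPKM in the parent, ANKRD37 passed the filter only through the subclones (2.09 and 2.49 RPKM). Its intervals included 1 (0.729 to 16.8 and 0.920 to 19.4). DDIT4, an inhibitor of mTORC1 signalling, stood at 19.5, 48.8 and 42.0 RPKM in the parent, subclone 1 and subclone 2, with ratios of 2.51 (95% counting interval 2.08 to 3.04) and 2.16 (1.78 to 2.63). CA9, a carbonic anhydrase of the cell surface, had ratios of 2.30 (1.75 to 3.04) and 2.27 (1.73 to 3.00), and its relative CA12 of 1.71 (1.62 to 1.80) and 1.72 (1.63 to 1.81). VEGFA, an angiogenic growth factor, was 1.72-fold above the parent in subclone 1 (1.52 to 1.95). NDRG1, a stress-response protein, was 1.56-fold (1.47 to 1.66), P4HA1, a collagen prolyl hydroxylase, 1.51-fold (1.29 to 1.78) and BNIP3L, a mitophagy receptor, 1.51-fold (1.34 to 1.70) above the parent in the same line. EGLN1, an oxygen sensor, lay below the parent in both subclones, at 0.679 (0.612 to 0.754) and 0.696 (0.628 to 0.771). KDM3A, a histone demethylase, lay below it in subclone 2 alone, at 0.810 (0.699 to 0.938). Both were named after their values were seen. The oxygen conditions of the cultures were not given in the labels, and no part of these genes in the differences of SLC16A3 or ALDOC was tested.

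Of 13 regulators of glucose metabolism past the filter, 2 were at least 1.5-fold higher and 1 lower in subclone 1 over the parent (11.6% and 7.46% of all genes). In subclone 2 the counts were 3 and 1 (12.7% and 7.30%). MYC, a transcription factor that activates many glycolytic genes, stood at 88.3, 54.7 and 54.4 RPKM. Its ratios to the parent were 0.620 (0.558 to 0.687) and 0.617 (0.556 to 0.683). CREB3L3, a liver transcription factor of the fasting response, stood at 9.48, 30.6 and 48.0 RPKM, with ratios of 3.23 (2.60 to 4.04) and 5.06 (4.12 to 6.26). EPAS1 (HIF-2alpha) was 1.55-fold above the parent in subclone 2 (1.38 to 1.74). GCKR had 11, 29 and 18 reads, with ratios to the parent of 2.57 (1.24 to 5.70) and 1.55 (0.695 to 3.64).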
